A study of Homo sapiens with 22 samples.

Results

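DNA replication and mitosis genes were followed through a study of QKI5, the nuclear isoform of the RNA-binding protein QKI, in THP-1, an established human monocytic leukaemia line. The 41 members were picked by symbol from 20033 protein-coding genes. Knockdown cells carried a lentivirus with a short hairpin against QKI5, and control cells a lentivirus with a control hairpin, per the sample labels. Of the 22 samples, each condition had 2 for H3K4me3 chromatin immunoprecipitation (ChIP), 2 for RNA polymerase II (Pol II) ChIP and 2 for QKI5 crosslinking immunoprecipitation (CLIP), beside input samples. The authors deposited 1 peak list per assay and condition, made from both replicates, so no value has a replicate check, no difference between the conditions was tested, and the depth behind each list is unknown.

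H3K4me3 is the histone mark of active promoters, Pol II is the enzyme that makes messenger RNA, and CLIP maps the RNA sites that come down with a protein. On chromosomes 1 to 22, X and Y the lists held 21358 H3K4me3 peaks in knockdown and 21953 in control, and 35094 Pol II peaks in knockdown and 33370 in control. Of 10 monocytic marker genes fixed for a check of the label, 7 had an H3K4me3 peak within 1 kb of a gene end in both conditions. These were SPI1, CD14, LYZ, CEBPA, CD33, ITGAM and ELANE, while CSF1R, FCGR1A and MPO had none in either condition. H3K4me3 lay at 1 of 4 T cell markers (CD8A), 2 of 4 B cell markers (CD79A and PAX5), 1 of 3 fibroblast markers (COL1A1) and 0 of 4 epithelial markers, in both conditions alike. It lay at 0 of 3 erythroid markers, although KLF1 among them had a Pol II peak in both conditions.

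A dividing cell copies its DNA once and then shares it out. Origins are first licensed by loading the MCM helicase, which CDC6 and CDT1 bring to the DNA. Cyclin-dependent kinases then fire the origins and later drive entry into mitosis, where checkpoint kinases hold anaphase back until every chromosome is attached. Transcription follows the same order: E2F factors switch on genes for S phase, and the pocket proteins RBL1 and RBL2 hold E2F targets off in resting cells. Genes for G2 and mitosis are instead known for a cell cycle homology region (CHR) and CCAAT boxes in their promoters, bound by the DREAM and MuvB complexes and by NF-Y. Leukaemia lines such as THP-1 cycle continuously and are known to leave the cycle when they differentiate into macrophage-like cells.

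A few promoters that carry these elements are shown, since Pol II and H3K4me3 peaks over the start site are described below. RefSeq (GRCh38.p14) gave a promoter of 300 bases, 250 before the start site and 50 after it, for 33 of the 41 members, and MCM4, MCM5, CCNE2, CDK2, WEE1, AURKA, BIRC5 and TTK had no entry. The E2F site was searched as TTTCGCGC or TTTGGCGC, the CHR as TTTGAA or TTCGAA, and the CCAAT box as CCAAT, all on both strands. Capitals below mark every match, read 5′ to 3′ on the strand of the gene. MCM2 (chr3:127598161-127598460, plus strand), MCM3 (chr6:52284693-52284992, minus) and MCM6 (chr2:135876394-135876693, minus) stand for genes of G1 and S phase. TOP2A (chr17:40417847-40418146, minus), CDK1 (chr10:60778081-60778380, plus), CCNB2 (chr15:59104896-59105195, plus) and PLK1 (chr16:23678639-23678938, plus) stand for genes of G2 and mitosis. These are the leading members of each class, in order of role, that hold the class motif, and BUB1B (chr15:40160819-40161118, plus) is added for its Pol II peak.
MCM2: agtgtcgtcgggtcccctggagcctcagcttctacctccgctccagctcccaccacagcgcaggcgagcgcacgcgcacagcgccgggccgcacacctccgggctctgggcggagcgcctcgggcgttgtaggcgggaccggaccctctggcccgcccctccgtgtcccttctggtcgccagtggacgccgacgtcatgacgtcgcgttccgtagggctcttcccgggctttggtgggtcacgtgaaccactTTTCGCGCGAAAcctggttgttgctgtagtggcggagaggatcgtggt
MCM3: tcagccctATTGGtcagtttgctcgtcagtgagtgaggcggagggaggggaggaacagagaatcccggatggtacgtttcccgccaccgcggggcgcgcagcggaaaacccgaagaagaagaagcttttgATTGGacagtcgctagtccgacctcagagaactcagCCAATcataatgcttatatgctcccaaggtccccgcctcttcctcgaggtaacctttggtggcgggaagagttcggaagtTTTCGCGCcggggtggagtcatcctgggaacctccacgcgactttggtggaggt
MCM6: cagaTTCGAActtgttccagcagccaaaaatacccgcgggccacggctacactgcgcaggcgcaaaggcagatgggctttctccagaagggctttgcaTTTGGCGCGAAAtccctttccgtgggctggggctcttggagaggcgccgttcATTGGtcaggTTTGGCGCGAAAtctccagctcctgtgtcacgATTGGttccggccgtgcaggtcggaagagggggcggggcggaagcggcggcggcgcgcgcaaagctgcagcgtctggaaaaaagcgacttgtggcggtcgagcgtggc
TOP2A: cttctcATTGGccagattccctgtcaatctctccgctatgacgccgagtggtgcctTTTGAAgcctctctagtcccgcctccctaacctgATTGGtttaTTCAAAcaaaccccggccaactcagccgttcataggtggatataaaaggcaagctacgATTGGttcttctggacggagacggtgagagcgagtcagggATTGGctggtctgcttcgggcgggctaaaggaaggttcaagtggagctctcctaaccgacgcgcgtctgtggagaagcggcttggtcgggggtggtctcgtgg
CDK1: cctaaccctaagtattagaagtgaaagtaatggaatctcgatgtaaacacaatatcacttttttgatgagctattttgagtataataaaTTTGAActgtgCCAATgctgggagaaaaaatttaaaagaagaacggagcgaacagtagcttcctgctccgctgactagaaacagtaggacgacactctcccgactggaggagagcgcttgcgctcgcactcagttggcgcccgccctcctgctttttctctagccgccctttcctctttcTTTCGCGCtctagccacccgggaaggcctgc
CCNB2: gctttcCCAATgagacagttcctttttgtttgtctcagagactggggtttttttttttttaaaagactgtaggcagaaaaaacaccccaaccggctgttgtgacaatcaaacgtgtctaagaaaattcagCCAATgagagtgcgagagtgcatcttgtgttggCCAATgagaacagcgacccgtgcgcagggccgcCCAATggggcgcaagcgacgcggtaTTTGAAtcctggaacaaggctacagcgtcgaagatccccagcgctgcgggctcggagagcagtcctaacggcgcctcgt
PLK1: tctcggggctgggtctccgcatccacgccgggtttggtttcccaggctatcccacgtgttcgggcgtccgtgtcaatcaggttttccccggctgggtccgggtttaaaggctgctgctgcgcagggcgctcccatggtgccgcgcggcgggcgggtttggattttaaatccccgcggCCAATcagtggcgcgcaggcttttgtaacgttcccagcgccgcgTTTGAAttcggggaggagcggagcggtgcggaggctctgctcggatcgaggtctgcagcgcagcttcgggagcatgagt
BUB1B: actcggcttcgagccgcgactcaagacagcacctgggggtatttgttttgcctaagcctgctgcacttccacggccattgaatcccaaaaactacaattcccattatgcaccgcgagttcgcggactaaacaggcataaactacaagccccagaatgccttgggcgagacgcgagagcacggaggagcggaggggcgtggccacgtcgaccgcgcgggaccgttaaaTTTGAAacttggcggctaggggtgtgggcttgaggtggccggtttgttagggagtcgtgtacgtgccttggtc

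In MCM2 the E2F letters on the plus strand begin at base 3 after the start site, and a minus-strand match overlaps them. MCM6 held overlapping matches at 152 and 148 bases, and again at 90 and 86 bases, before the start. In CCNB2 and PLK1 the CHR letters began 29 bases before the start, and in BUB1B 23 bases before it. TOP2A held 4 CCAAT boxes and CCNB2 also 4, whereas none was found in the window of BUB1B.

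Members were sorted from textbook knowledge by promoter class, 24 under E2F and 17 under CHR. These classes are called G1/S and G2/M here, and 19 and 14 of their genes had a promoter sequence. Because each class was named for its element, a higher share of that element there is no independent support for the sorting. An E2F match was present in 9 of the 19 G1/S promoters, 47.4%, and in 1 of the 14 G2/M promoters, CDK1, against 1.67% of all 15842 protein-coding promoters. The 9 were MCM2, MCM3, MCM6, MCM7, CDC6, E2F1, E2F2, RBL1 and CDC25A. A CHR match was present in 9 of the 14 G2/M promoters, 64.3%, and in 4 of the 19 G1/S promoters, 21.1%, against 13.5% of all promoters. Those 9 were TOP2A, CDK1, CCNB2, PLK1, BUB1, BUB1B, MAD2L1, CDC20 and MKI67. CCAAT was in 11 of 14 G2/M and 11 of 19 G1/S promoters, against 36.4% of all. Median GC content was 64.2% in the G2/M class and 62.3% in the G1/S class, against 62.7% over all promoters. Among the 10507 promoters under H3K4me3 in both conditions the shares were 2.25% for E2F, 10.4% for CHR and 36.2% for CCAAT. Among 86 promoters of other replication and mitosis genes they were 6.98% for E2F, 30.2% for CHR and 57.0% for CCAAT. A match describes the letters in this window and is not a measured binding site.

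**Figure D1:**
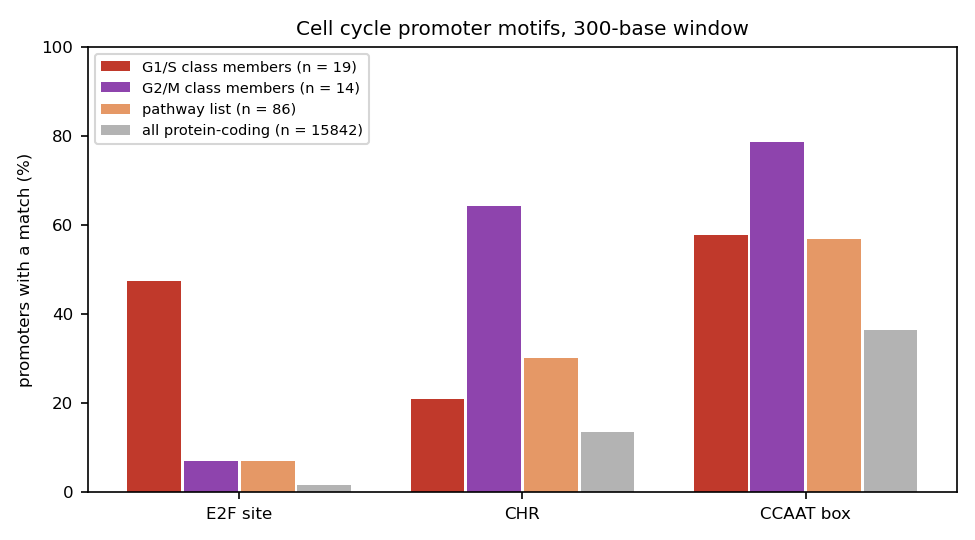
Share of promoters with an E2F site, a CHR or a CCAAT box (percent, vertical axis from 0) for the 19 G1/S members, the 14 G2/M members, 86 other genes of the pathway and all 15842 protein-coding promoters. E2F matches stand at 47.4% in the G1/S class and CHR matches at 64.3% in the G2/M class, against 1.67% and 13.5% of all promoters. The 2 classes were labelled by these elements when the members were sorted.

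H3K4me3 lay at every member in both conditions. For each gene, the widest peak within 1 kb of either end of its RefSeq span was taken, called a gene-end peak. Of the 41 members, 41 had one in both lists, against 66.6% of all protein-coding genes. The background for a peak in a single list was 1.15% in knockdown alone and 0.815% in control alone, of genes with a peak in either list. Member peaks had a median width of 4640 bp in knockdown and 4684 bp in control, against 3731 bp and 3871 bp over all genes with a peak. In knockdown 33 of 41, and in control 33 of 41, were wider than the median of all genes.

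No member crossed 1.5-fold in H3K4me3 width. Over all genes with a peak in both lists, 1.96% were wider and 2.22% narrower by more than 1.5-fold. The log2 ratio of knockdown over control width had a median of -0.06 over the members and -0.04 over all genes, and 24 members (58.5%) were narrower and 17 (41.5%) wider in knockdown by any amount, against 57.8% and 41.9% of all genes. BIRC5, which encodes the chromosomal passenger survivin, stood at the wide end with 4170 bp in knockdown and 3045 bp in control, a log2 ratio of 0.45. CCNA2, the cyclin of S phase and early mitosis, stood at the narrow end with 3503 bp in knockdown and 4439 bp in control, a log2 ratio of -0.34.

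The 3 widest control H3K4me3 peaks lay at RRM2, MAD2L1 and CDT1. RRM2, the small subunit of ribonucleotide reductase, had 8470 bp in knockdown and 9417 bp in control. MAD2L1, the checkpoint protein that holds back the anaphase-promoting complex, had 6850 bp in knockdown and 7573 bp in control. CDT1, the licensing factor, had 6761 bp in knockdown and 7408 bp in control. In knockdown MCM4, a helicase subunit gene, came next after RRM2, with 7601 bp in knockdown and 6678 bp in control. Beside BIRC5, the narrowest control peaks were at CDC6, with 2749 bp in knockdown and 3100 bp in control, and at PCNA, the sliding clamp of DNA polymerase, with 3335 bp and 3265 bp. All 41 widest peaks overlapped between the lists. At 14 members in knockdown and 14 in control the peak also touched the end of another protein-coding gene, such as STIM1 beside RRM1.

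**Figure D2:**
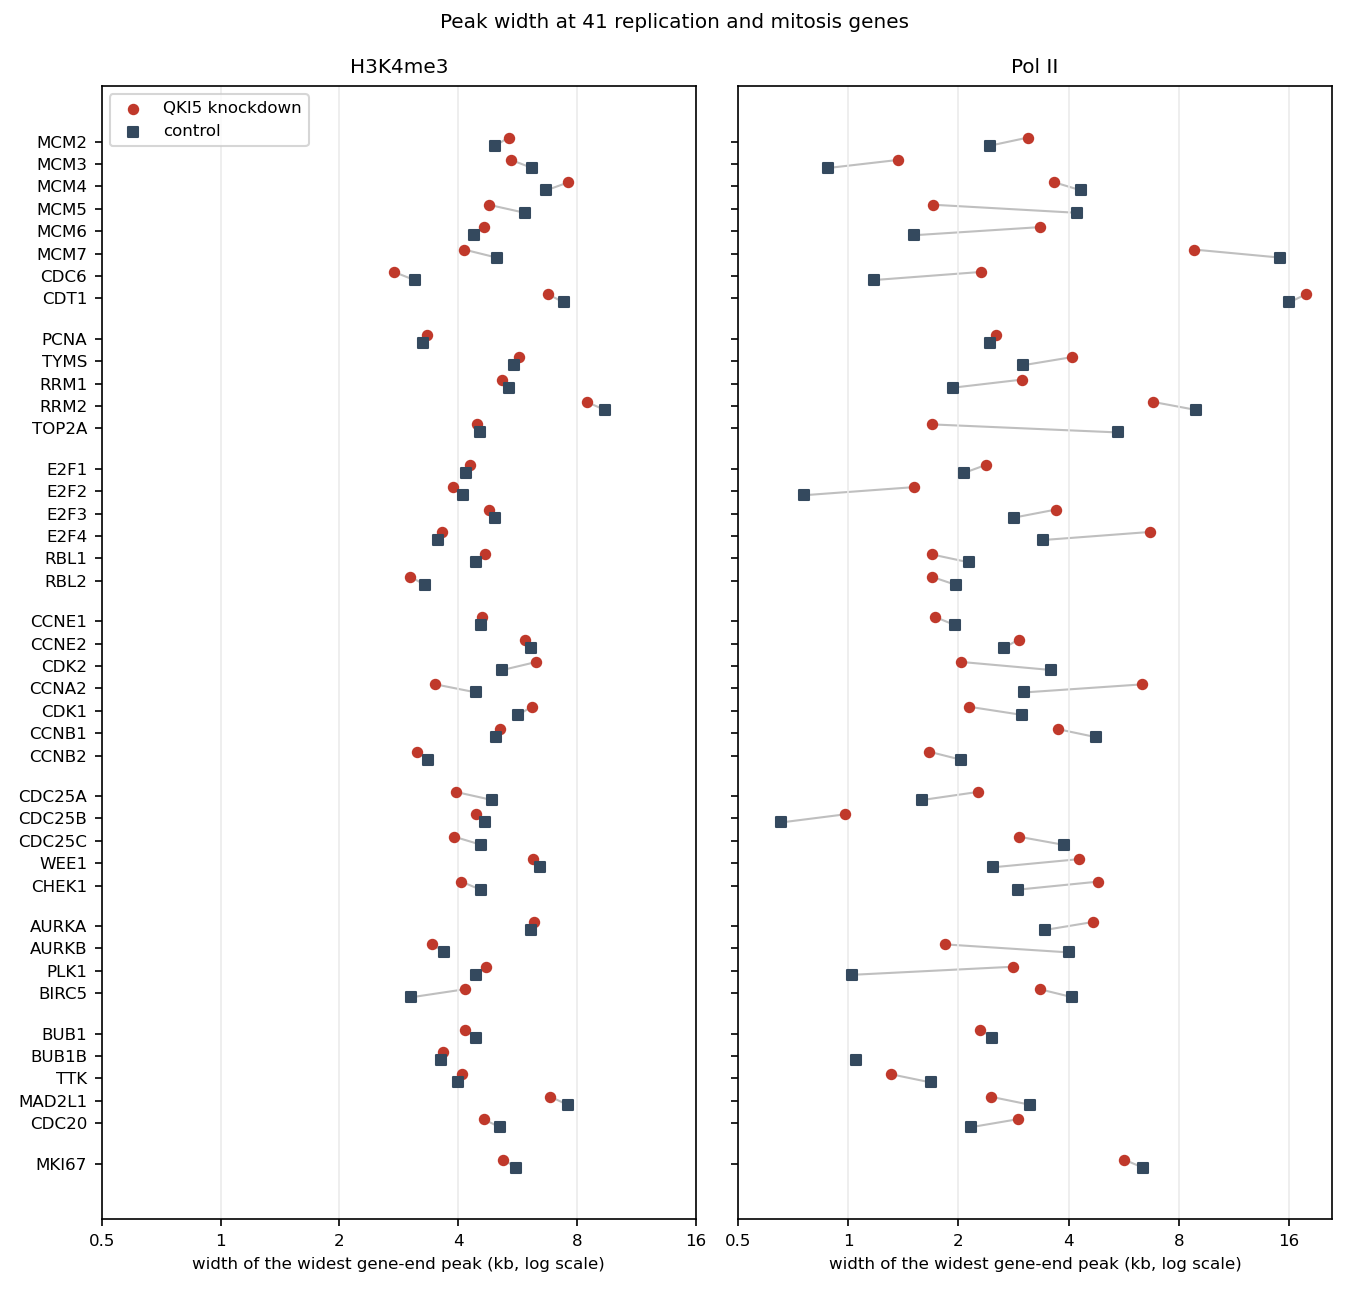
Width of the widest peak within 1 kb of a gene end (kb, log scale) for the 41 members, grouped by role from licensing at the top to MKI67 at the bottom, with H3K4me3 on the left and Pol II on the right. Red circles are QKI5 knockdown and dark squares control, 1 pooled list each. H3K4me3 points lie close together, within log2 ratios of -0.34 to 0.45, while Pol II points lie from -1.69 at TOP2A to 1.46 at PLK1, and BUB1B has no knockdown Pol II point.

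Pol II was found at 40 of 41 members in both conditions, and the exception was BUB1B. All 41 had a control gene-end peak. Over all genes 57.6% had a peak in both lists, and of the genes with a peak in either, 6.25% had it in knockdown alone and 3.01% in control alone. BUB1B encodes BubR1, a pseudokinase of the spindle checkpoint. Its control Pol II peak was 1052 bp wide (chromosome 15, 40160641 to 40161692, GRCh38.p5), covered the promoter printed above and lay 44300 bp from the nearest knockdown peak. With a window of 5 kb in place of 1 kb a knockdown peak did count for BUB1B, so that 41 members had Pol II in both lists. Given the distance of 44300 bp, that knockdown peak was not at the BUB1B start. With a window of 500 bp the number was 39. H3K4me3 at BUB1B was 3652 bp wide in knockdown and 3619 bp in control. Its partner kinase BUB1 had Pol II peaks of 2295 bp in knockdown and 2470 bp in control, so the absence was not shared by the pair.

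Pol II widths differed between conditions more than those of H3K4me3, in both directions. Among the 40 members with a peak in both lists, 10 were more than 1.5-fold wider in knockdown and 5 more than 1.5-fold narrower. The background was 17.4% wider and 9.9% narrower over all genes with a Pol II peak in both lists. The median log2 ratio was 0.09 over the members and 0.08 over all genes. Member peaks had a median width of 2861 bp in knockdown and 2669 bp in control, against 2361 bp and 2276 bp over all genes. At 17 members in knockdown and 14 in control the widest Pol II peak also touched the end of another protein-coding gene. Beside those named below, these included RRM1 (STIM1), AURKA (CSTF1), CDC25C (FAM53C) and CCNE2 (NDUFAF6) in both conditions, and MCM6 (LCT) in knockdown.

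**Figure D3:**
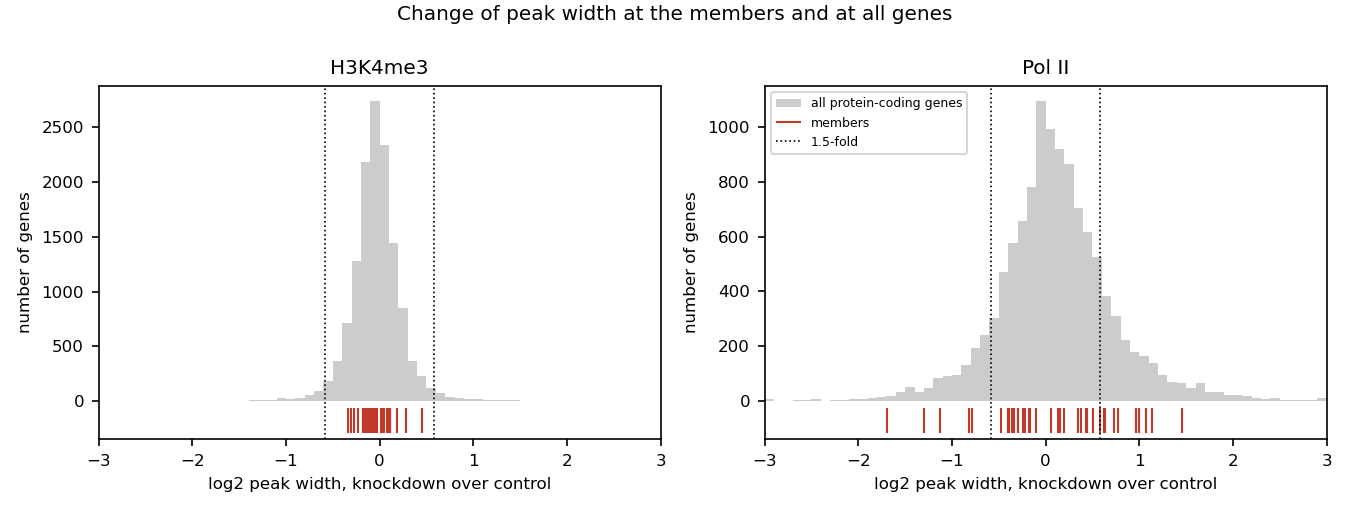
Number of protein-coding genes (vertical axis) by log2 peak width of knockdown over control (horizontal axis, values beyond 3 drawn at 3) for H3K4me3 on the left and Pol II on the right. Red ticks are the members and dotted lines mark 1.5-fold. No H3K4me3 tick lies outside the dotted lines, while 10 Pol II ticks lie to the right and 5 to the left.

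The licensing genes held peaks of both directions. MCM6, a helicase subunit, had Pol II peaks of 3331 bp in knockdown and 1514 bp in control, but the widest lay at the 3' end in knockdown and at the 5' end in control. At its 5' end the peak was 2989 bp in knockdown and 1514 bp in control. CDC6 had 2301 bp in knockdown and 1177 bp in control, a fold of 1.95, but with a window of 5 kb the log2 ratio of CDC6 was -0.39. MCM3 had 1370 bp in knockdown and 882 bp in control, a fold of 1.55. MCM2 had 3102 bp in knockdown and 2446 bp in control, again at different ends, with 3102 bp and 1592 bp at the 5' end, where the knockdown peak also touched TPRA1. These 4 genes were thus wider at the start site in knockdown.

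MCM5 and MCM7 were narrower. MCM5 had 1706 bp in knockdown and 4213 bp in control, a fold of 0.40. MCM7 had 8803 bp in knockdown and 15152 bp in control, a fold of 0.58. The control peak of MCM7 ran over the whole gene and also touched AP4M1 and COPS6, and knockdown had separate peaks of 2649 bp at the 5' end and 8803 bp at the 3' end. With all gene-end peaks of MCM7 summed the log2 ratio was -0.40, inside 1.5-fold. MCM4 had 3657 bp in knockdown and 4327 bp in control, shared with the end of PRKDC. CDT1 lay under the widest Pol II peak of the members, 17767 bp in knockdown and 15991 bp in control, which also reached APRT and GALNS.

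At the fork and in nucleotide supply, RRM1, the large subunit of ribonucleotide reductase, had Pol II peaks of 2990 bp in knockdown and 1938 bp in control, a fold of 1.54. TYMS, thymidylate synthase, had 4084 bp in knockdown and 3005 bp in control. PCNA had 2532 bp in knockdown and 2442 bp in control at its 3' end, where the peak also touched TMEM230. At the PCNA start the order was the opposite, with 1364 bp in knockdown and 1655 bp in control. TOP2A, the topoisomerase that untangles sister chromatids, had 1690 bp in knockdown and 5471 bp in control, a fold of 0.31. That value compares different ends: the control peak of 5471 bp lay at the 3' end, where knockdown had none, and at the 5' end the widths were 1690 bp in knockdown and 1940 bp in control. With a window of 500 bp the log2 ratio of TOP2A was -0.20. RRM2 likewise compares its start, 6816 bp in knockdown, with the outer 3' end of a long RefSeq span, 8936 bp in control, and at the start alone the widths were 6816 bp in knockdown and 4885 bp in control.

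Among the E2F factors and pocket proteins, E2F2, an activator, had 1512 bp in knockdown and 759 bp in control, a fold of 1.99. E2F4, which works mainly as a repressor with the pocket proteins, had 6668 bp in knockdown and 3405 bp in control at its 3' end, and there the peak also touched ELMO3. At the 5' end of E2F4 the order was the opposite, with 1787 bp in knockdown and 3104 bp in control, and with all gene-end peaks summed the log2 ratio was 0.38, inside 1.5-fold. E2F1 had 2385 bp in knockdown and 2077 bp in control, and E2F3 had 3694 bp and 2835 bp. RBL1 had 1690 bp in knockdown and 2144 bp in control, and RBL2 1692 bp and 1968 bp, so both pocket protein genes were narrower, by less than 1.5-fold.

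Of the cyclins and their kinases, CCNA2 had 6350 bp in knockdown and 3027 bp in control, a fold of 2.10, at its 3' end, where EXOSC9 also ends. At the CCNA2 start the widths were 2411 bp in knockdown and 2658 bp in control. CDK2, the kinase of S phase, had 2036 bp in knockdown and 3590 bp in control, a fold of 0.57, shared with RAB5B. CDK1, the kinase of mitosis, had 2141 bp in knockdown at its start and 2978 bp in control at its 3' end. CCNB1, its mitotic cyclin, had 3743 bp in knockdown and 4766 bp in control at the 3' end, but 3533 bp and 1634 bp at the 5' end. CCNB2 had 1659 bp in knockdown and 2031 bp in control, CCNE1 1732 bp and 1960 bp, and CCNE2 2924 bp and 2669 bp.

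Among the kinases and phosphatases that set the timing of CDK1, WEE1, its inhibitory kinase, had 4260 bp in knockdown and 2492 bp in control, a fold of 1.71. CHEK1, the kinase of the replication checkpoint, had 4825 bp in knockdown and 2905 bp in control, a fold of 1.66, and its knockdown peak also touched STT3A. CDC25A, which removes the inhibitory phosphate, had 2261 bp in knockdown and 1592 bp in control, and CDC25C had 2929 bp and 3878 bp. CDC25B had the narrowest control peak of the members, 657 bp at its 5' end, where the peak also touched CENPB. In knockdown CDC25B had 980 bp at its 3' end alone. No Pol II peak covered the CDC25B promoter window in either condition. Its H3K4me3 peak was 4425 bp in knockdown and 4684 bp in control, and also touched CENPB in both. That peak reached 4037 bp before the CDC25B start and 387 bp past it in knockdown. In control the reach was 4203 bp before and 480 bp past. To which gene the mark belonged was not tested.

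The mitotic kinases differed among themselves. PLK1, which drives centrosome maturation and spindle assembly, had 2811 bp in knockdown and 1024 bp in control, a fold of 2.75 and the largest of the 40 ratios, and its knockdown peak also touched DCTN5. AURKB, the kinase of the chromosomal passenger complex, had 1833 bp in knockdown and 4012 bp in control at its 3' end, a fold of 0.46, but 1511 bp and 947 bp at its 5' end, and summed over both ends a log2 ratio of -0.57, inside 1.5-fold. AURKA, the spindle pole kinase, had 4673 bp in knockdown and 3441 bp in control, and BIRC5 had 3331 bp and 4098 bp. Of the spindle checkpoint genes none with a peak in both lists crossed 1.5-fold: MAD2L1 had 2452 bp in knockdown and 3144 bp in control, TTK 1313 bp and 1680 bp, and CDC20, the activator that checkpoint proteins hold back, 2910 bp and 2160 bp. MKI67, the marker protein of cycling cells, had 5660 bp in knockdown and 6376 bp in control, at its 3' end in both.

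Since the widest peak could lie at either end, the peak over the 300-base promoter window was also compared, a measure chosen after the data were seen. For H3K4me3, 33 of 33 members had such a peak in both lists, against 66.3% of all genes with a promoter sequence, and none was wider or narrower by more than 1.5-fold, where the background was 1.59% and 2.04%. A peak in a single list, which no member had, had a background of 1.1% in knockdown alone and 0.552% in control alone. For Pol II 31 of 33 had one in both lists, against 55.7%, and BUB1B had one in control alone, where the background was 6.16% in knockdown alone and 2.52% in control alone. Of the 31, 10 were more than 1.5-fold wider in knockdown and 2 more than 1.5-fold narrower. For these widths the background was 15.4% wider and 8.97% narrower, and the median log2 ratio was 0.20 over the members and 0.07 over all genes. In the G1/S class 7 of 19 were wider, namely MCM2, MCM3, MCM6, CDC6, RRM1, E2F2 and CHEK1, and 2 were narrower, MCM7 and E2F4. In the G2/M class 3 of 12 were wider, CCNB1, AURKB and PLK1, and none was narrower. The medians were 0.44 in the G1/S class and -0.14 in the G2/M class, and the difference between the classes was not tested. Pol II peaks of the members reached a median of 1448 bp past the start in knockdown and 1113 bp in control, against 1112 bp and 1087 bp over all genes.

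**Figure D4:**
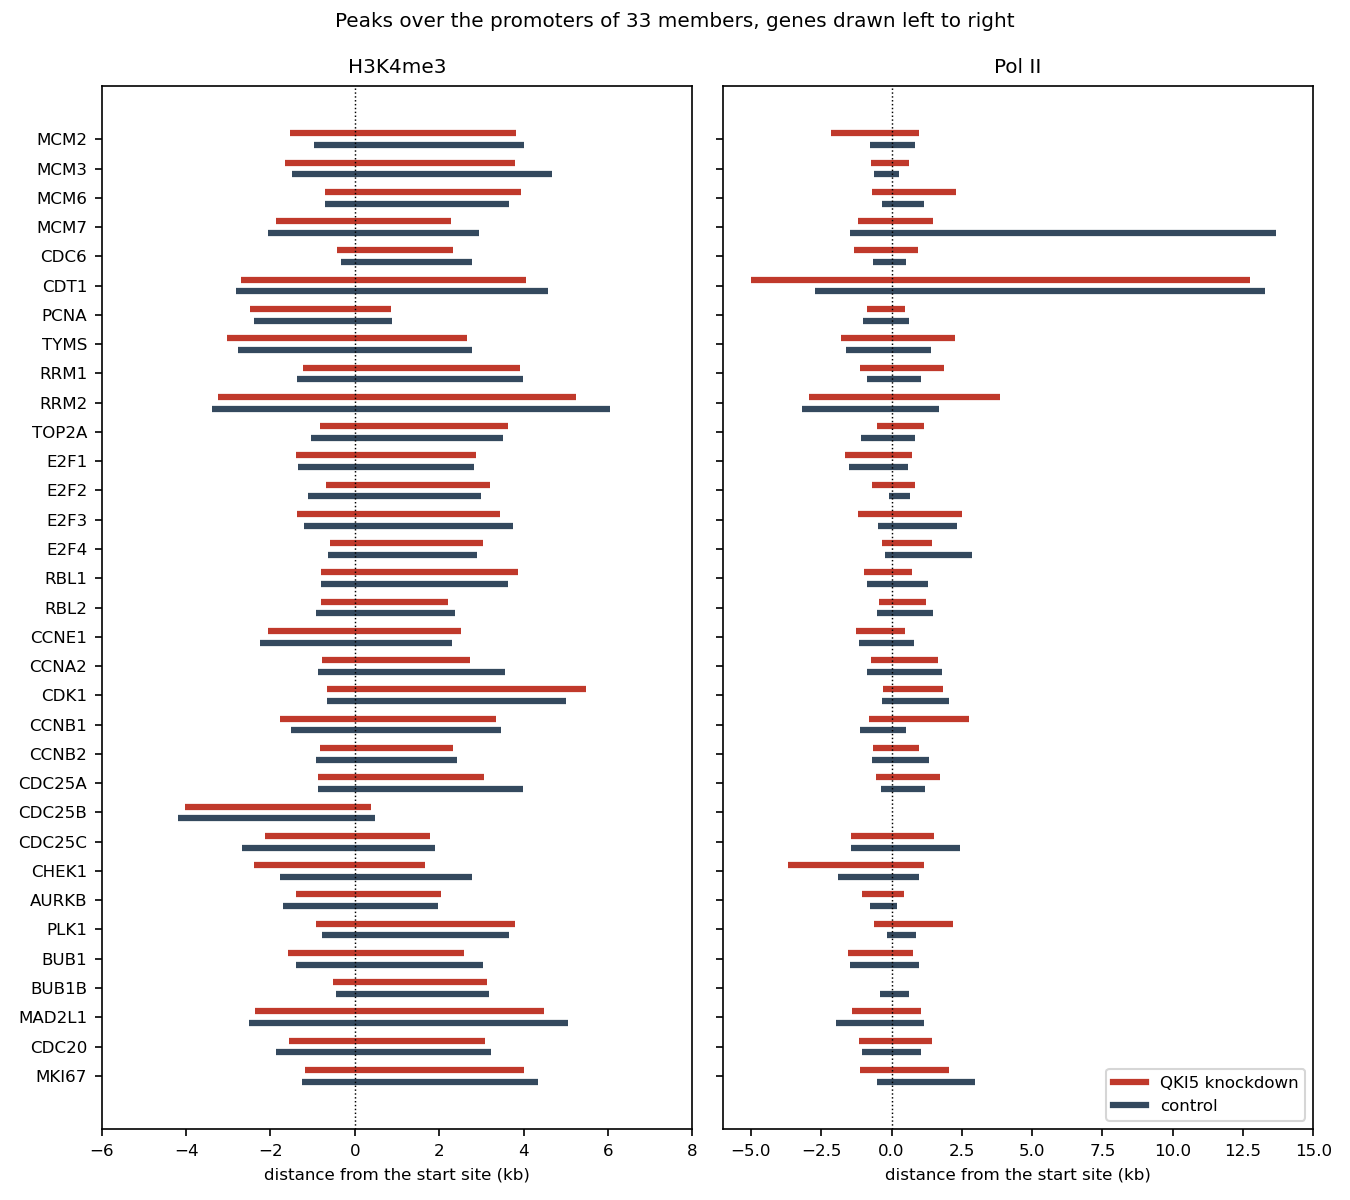
Extent of the H3K4me3 peak (left) and the Pol II peak (right) over the promoter of the 33 members with a promoter sequence, as distance from the start site (kb) with transcription running to the right. Red bars are QKI5 knockdown, drawn above the dark control bars. CDC25B has no Pol II bar and BUB1B a control bar alone, and the control bar of MCM7 runs over the whole gene.

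Pol II at the 3' end, where transcripts are cleaved and polymerase slows, was common at these genes. At the 5' end, 31 of the 33 members with a strand had a Pol II peak in knockdown and 33 in control, against 61.0% and 58.8% of all genes, and 33 had H3K4me3 in each, against 67.7% and 67.5%. At the 3' end H3K4me3 was near the background, at 3 members in knockdown (9.09%) and 4 in control (12.1%), against 10.9% and 11.1%. A Pol II peak lay within 1 kb of the 3' end at 19 in knockdown (57.6%) and 16 in control (48.5%). For Pol II at the 3' end the shares of all genes with a strand were 26.9% in knockdown and 25.4% in control, and over those with a Pol II peak at the 5' end 39.2% and 37.9%. The 3' peak was in both lists at 13 members, among them MKI67, CCNB1, CCNA2, AURKB, CDC20 and PCNA. It was in knockdown alone at 6, MCM3, CDC6, TYMS, CDC25A, CDC25B and PLK1, and in control alone at 3, TOP2A, CDK1 and BUB1. The 3' peaks of CDC6 and BUB1 were 501 bp wide, the narrowest width in the Pol II lists. Over all genes with a 3' peak in either list, 20.2% had it in knockdown alone and 15.3% in control alone. Some of these peaks touch a neighbouring gene, as at PCNA with TMEM230 and at CDC20 with ELOVL1, and to which gene the polymerase belonged was not tested.

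Pol II also covered more of the gene span at the members than at other genes. A median of 14.3% of the span in knockdown and 13.4% in control lay under Pol II peaks, against 7.39% and 7.0% for all genes where both lists had Pol II at a gene end. The members' spans were shorter, with a median of 19165 bp against 27663 bp, and the part of length was not tested. Without the outer 1 kb at each end the medians were 5.96% in knockdown and 6.11% in control, against 2.96% and 2.58% for those genes, and the order of the conditions at the members was the opposite. CDT1 was covered over 100% of its span in both conditions, and MCM7 over 79.7% in knockdown and 100% in control. MKI67 was covered over 57.6% in knockdown and 41.8% in control, CDC20 over 65.8% and 39.8%, and PLK1 over 42.7% and 24.5%. TOP2A was covered over 59.7% in knockdown and 73.2% in control. The share was higher in knockdown at 18 members and lower at 22, so the direction was mixed.

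Set beside each other, the widest Pol II peak lay on an H3K4me3 peak at 33 of 40 members in knockdown and 30 of 41 in control, against 88.6% and 88.8% of all genes with a Pol II gene-end peak. Those off the mark included MKI67, CCNB1, CCNA2, AURKB and BIRC5 in both conditions. For the first 4 the peak lay at the 3' end, and no strand was assigned to BIRC5. Pol II peaks were 0.58 times as wide as the H3K4me3 peak of the same gene in knockdown and 0.56 times in control, as medians over the members, against 0.61 and 0.56 over all genes.

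QKI5 CLIP peaks were few at these genes. By symbol, 1 of 41 members had a peak in the knockdown list, 2.44%, and 6 had one in the control list, 14.6%, against 1.82% and 13.9% of all protein-coding genes. The shares are near the background, and no member was in both lists. The knockdown list held 669 peaks and the control list 7337, and the authors give each peak a read number, a log2 enrichment and a -log10 p, which only rank peaks within a list.

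The knockdown peak was in MCM3, at 52283181 to 52283214 on the minus strand of chromosome 6 (GRCh38.p5), with 6 reads. Its log2 enrichment was 5.95 and its -log10 p 7.13. No peak of the knockdown list had fewer reads. It lay 1528 bp into the gene, under the H3K4me3 peak.

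The 10 control peaks made 8 sites once adjoining peaks were merged, with 5 to 10 reads each, against a median of 9 over the control list. RRM1 had 2 adjoining peaks on the plus strand of chromosome 11, from 4095085 to 4095120 and from 4095121 to 4095225, each with 9 reads and with log2 enrichments of 7.09 and 6.09. They began 400 bp into the gene, on both its H3K4me3 and its Pol II peak. E2F3 also had its peaks near the start, at 20401915 to 20402048 and 20402274 to 20402369 on the plus strand of chromosome 6, with 5 and 8 reads, 36 and 395 bp into the gene. These 4 peaks were the members' only control CLIP peaks on H3K4me3, and the same 4 lay on Pol II.

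The others lay inside or late in their genes. RBL1 had 2 adjoining peaks at 37007418 to 37007524 on the minus strand of chromosome 20, with 9 reads each, and another at 37062159 to 37062172 with 10 reads. BUB1 had 1 peak with 10 reads, 5205 bp into the gene, and RRM2 had 1 with 7 reads. MCM6 had 1 peak, 5 bp wide, with 9 reads, 1113 bp before its 3' end. The highest -log10 p of any member was 9.91, at RRM1, and the median of the control list was 8.13.

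In a wider list of 98 replication and mitosis genes, H3K4me3 was in both lists at 93 of them and Pol II at 90. Of all protein-coding genes, 66.6% and 57.6% had them in both. In H3K4me3 1 gene was more than 1.5-fold wider in knockdown, SPC25, a kinetochore protein gene (3831 bp in knockdown and 2200 bp in control), and 1 narrower, PKMYT1, which encodes an inhibitory kinase of CDK1 (5679 bp and 11244 bp), where 1.96% and 2.22% of all genes were. In Pol II 15 of 90 were wider and 14 narrower, against 17.4% and 9.9% of all genes. Pol II was in knockdown alone at 3 genes and in control alone at 3. Of all genes with a Pol II peak in either list, 6.25% had it in knockdown alone and 3.01% in control alone. Those in knockdown were GINS2, a subunit of the replicative helicase (3529 bp), ORC1, the largest subunit of the origin recognition complex (802 bp), and MAD2L2 (501 bp). MAD2L2 also had H3K4me3 in knockdown alone, in a narrow peak of 652 bp, where the background was 1.15%. Those in control were POLD3, an accessory subunit of DNA polymerase delta (1185 bp), MCM10 (770 bp) and UHRF1 (501 bp). The peaks of 501 bp have the narrowest width in the Pol II lists. ORC1 and UHRF1 had H3K4me3 in neither list.

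CLIP peaks in that list were at 2 genes in knockdown (2.04%) and 24 in control (24.5%), against 1.82% and 13.9% of all protein-coding genes, and the difference from all genes was not tested. MAD1L1, which recruits MAD2 to kinetochores, carried 3 peaks in knockdown and 12 in control, and ORC3 carried 1 in knockdown alone. FBXW7, which encodes the ubiquitin ligase adaptor that marks cyclin E for destruction, the checkpoint kinase gene ATR and the condensin gene NCAPD2 had 4 control peaks each and none in knockdown. The other 20 control genes were CCNF, CDC27, CHAF1A, CKS1B, CLSPN, E2F6, FZR1, LIN52, LIN9, MCM10, ORC2, ORC5, PKMYT1, PRIM2, RFC3, RFC4, RPA1, SKP2, TFDP1 and UHRF1. PKMYT1 counts by symbol alone, since its peaks lay past the 3' end of its RefSeq span.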

How the data were processed

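ChIP-seq of H3K4me3 and Pol II and CLIP-seq of QKI5 were made from THP-1 cells, per the labels. The authors deposited 6 peak lists, and the series design text says that both replicates went into each. The ChIP lists give positions and, per the file values, a score of 1 at every deposited peak, so peaks were compared by width. The narrowest Pol II width, 501 bp, was held by 10044 of 35094 knockdown and 9721 of 33370 control peaks. The deposited CLIP lists have no header, and their values were read as a log2 enrichment, a -log10 p and a read number, the authors' own. The submitters' processing notes name HOMER and GRCh38.p5, while aligner, caller and use of inputs are not stated in the labels.

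Gene ends came from RefSeq GRCh38.p14, a patch release of the same assembly, and strand and start site from its promoter table, which holds 15842 of 20033 protein-coding genes. A peak within 1 kb of either gene end was assigned to the gene and the widest kept. The widths of both conditions were divided, and 1.5-fold was used as a fixed size, not a test. The code of the width and presence calls was run on simulated peaks of set widths, at genes spaced far apart. That checks the code alone, since shared or split peaks were not simulated. Neither a replicate test nor a test between gene lists was run. Members, lists and role classes were chosen with earlier results of these data known. Members past 1.5-fold, in a single list, with a CLIP peak or among the 3 widest or 3 narrowest in control are given in full. Alternatives were other windows, summed widths, narrow peaks left out, a 2-fold size, stricter CLIP lists and shorter motif lists. Python 3.11.15, pandas 2.3.3 and matplotlib 3.10.9 were used.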

Additional observations from a re-analysis of the deposited data

How the results depend on the processing

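Over the results on the members, 48 of 56 alternatives stayed within 1.5 times the value reported. With a 2-fold size in place of 1.5-fold, 3 members were wider in Pol II and 3 narrower, PLK1, MCM6 and CCNA2 against TOP2A, MCM5 and AURKB, where 7.26% and 3.84% of all genes crossed it. With the peak over the promoter window, 2 were narrower. CLIP peaks with a -log10 p of at least 10 were at 0 members in knockdown and 0 in control, and 0 members stayed in the control list limited to the length of the knockdown list. Without the outer 1 kb at each end, Pol II covered a median of 5.96% of the span in knockdown and 6.11% in control. Of the single-gene Pol II ratios, 4 changed sign in 72 comparisons: over the promoter window E2F4 had a log2 ratio of -0.80, AURKB 0.67 and CCNA2 -0.14, and with a window of 5 kb CDC6 had -0.39. Another 7 kept their sign but moved: with summed widths E2F4 had 0.38, PLK1 2.15, MCM3 1.51 and TOP2A -2.29, with a window of 500 bp TOP2A had -0.20, and over the promoter window TOP2A had -0.20 and MCM7 -2.52. The promoter window takes only peaks over the start site, so a separate 3' peak is left out. At MCM7 the control value there was still the peak of 15152 bp over the whole gene, against 2649 bp in knockdown. The cause of these changes, and of that at CDC6, was not tested. With a window of 5 kb, 41 members had Pol II in both lists, BUB1B included, though not by a knockdown peak at its start. With 500 bp the number was 39. No paired analysis was possible because each list pools both replicates, and for the same reason no replicate could be left out. The depth of the lists is unknown and limits every absence.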
